A study of Mus musculus with 12 samples.

Results

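DKO-severe and WT CD4+ T cells were compared across all genes, using the 4 DKO-severe and the 4 WT libraries among the 12 libraries of the series, and the differences were described by gene family and pathway. WT mice carried Foxp3-Cre, a YFP-Cre fusion expressed from the *Foxp3* locus, with intact *Tet2* and *Tet3*. DKO-severe mice carried the same Cre with homozygous floxed *Tet2* and *Tet3* (*Foxp3-Cre Tet2/3 fl/fl*), and they belonged to the class with the larger total number of spleen and lymph node cells. The Cre is driven by the promoter of *Foxp3*, the gene of regulatory T (Treg) cells, and the study notes that it can also be active at a low level in developing blood cells. The sorted cells were CD4+ and YFP(FOXP3)-, sorted at 14 weeks of age from spleen pooled with lymph nodes (cervical, inguinal), with 1 library per mouse. In DKO-severe mice these cells can be former Treg cells that lost FOXP3 or conventional T cells, and the library tells apart neither these nor cells with deleted and intact floxed alleles. A lower transcript level may come from fewer cells of a type or from less RNA per cell, and in bulk libraries these cannot be told apart. By cytometry the study found a much smaller naive share among CD4+ T cells in DKO-severe than in WT mice. The part of this shift in the differences below was not tested.

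A resting naive T cell is small, divides rarely, and circulates through lymph nodes with the receptor CCR7. After activation it enters the cell cycle, shifts its sugar and lipid metabolism, exchanges homing receptors for tissue receptors, and begins to express cytokines and inhibitory receptors. TET2 and TET3 oxidize 5-methylcytosine, a step in DNA demethylation, and Treg cells that lack both can lose FOXP3.

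Reads on genes ranged from 29254260 to 39662385 in the 8 libraries, and 15194 to 15964 genes were detected in WT against 16536 to 16872 in DKO-severe. *Cd4* was present at 864, 989, 1044, and 1166 CPM in WT and 938, 1325, 1271, and 1064 CPM in DKO-severe, and the groups overlapped. *Tet2* had 52 ± 8.05 CPM in WT and 60.7 ± 4.47 CPM in DKO-severe (mean ± SD, n = 4; log2 fold change 0.22 ± 0.15, adjusted p = 0.23), and *Tet3* had 195 ± 19.6 CPM in WT and 96 ± 6.37 CPM in DKO-severe (log2 fold change -1.03 ± 0.19, adjusted p = 0.00086, with ± for the standard error here and in all log2 fold changes). Reads outside the deleted exons are still counted for both genes. Libraries WT 2 and DKO-severe 3 lacked Y-linked transcripts, 1 in each group. The summed level of 10 general T cell genes was 5786, 6249, 5649, and 6351 CPM in WT and 4606, 5313, 5120.1, and 4796 CPM in DKO-severe, lower in 4 of 4 DKO-severe libraries (two-sided exact permutation test, p = 0.029, the smallest that 4 against 4 can give). The fall was not shared by all members, of which 5 were called lower, 2 higher (*Cd28* and *Cd3e*), and 3 not called.

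Transcripts of other blood cells were not equally present in the libraries. The summed level of 19 neutrophil genes was 12.2 to 24.3 CPM in WT, and 2608, 1007, 50.4, and 33.1 CPM in the DKO-severe libraries 1 to 4 (exact permutation test, p = 0.029), with DKO-severe 1 and 2 far above the others and 4 of the 19 genes without a read in WT. The 18 B cell genes summed to 16.4, 23.2, 860.3, and 30.6 CPM in WT and 395, 1292, 195, and 209 CPM in DKO-severe (exact permutation test, p = 0.46), so that WT 3 stood among the DKO-severe libraries. The 20 monocyte and macrophage genes ran from 15.5 to 294 CPM in WT, the highest in WT 3, and from 163 to 598 CPM in DKO-severe. Plasma cell genes summed to 86.1 to 204 CPM and 479.6 to 685 CPM, NK cell genes to 3.1 to 11.4 CPM and 8.69 to 20.9 CPM, dendritic cell genes to 8.56 to 35 CPM and 21.8 to 34.2 CPM, and erythroid genes to 5.29 to 22.1 CPM and 19.7 to 56.4 CPM, in WT and DKO-severe. The sum of *Cd8a* and *Cd8b1* was 16.8 to 26.7 CPM in WT and 1.03 to 13.2 CPM in DKO-severe (exact permutation test, p = 0.029). This fall was that of *Cd8b1*, at 18.3 ± 1.56 CPM in WT and 3.23 ± 2.18 CPM in DKO-severe (mean ± SD, n = 4). *Cd8a* was not called, at 0.201, 0.226, 6.47, and 0.273 CPM in WT and 3.15, 7, 0.0476, and 0.0239 CPM in DKO-severe. The part of these transcripts in the differences was not tested. Counts from 2 further fits are given beside the families, one with terms for the neutrophil and B cell lists (the marker terms), and the other, chosen after these sums had been seen, without WT 3, DKO-severe 1, and DKO-severe 2.

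**Figure D1:**
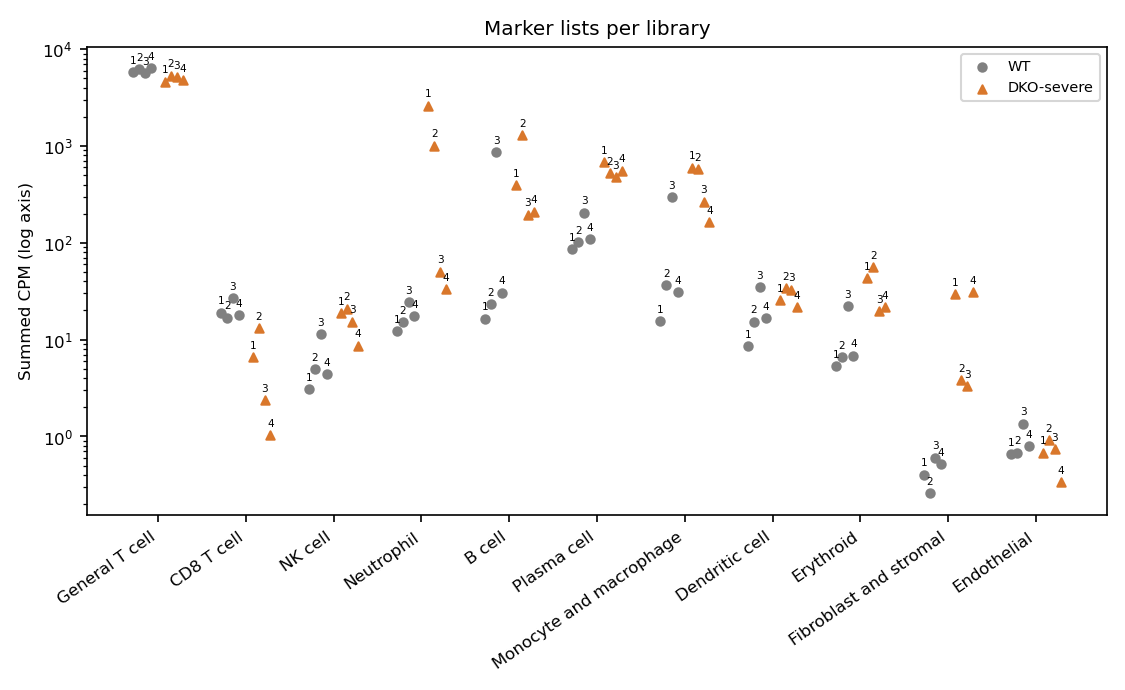
Summed level of each marker list (CPM, log axis) in each of the 4 WT (circles) and 4 DKO-severe (triangles) libraries, numbered by replicate. Neutrophil genes reach 2608 and 1007 CPM in DKO-severe 1 and 2, and B cell genes are high in WT 3 as well as in DKO-severe 2.

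Of 16035 genes tested, 4270 were higher and 4158 lower in DKO-severe (edgeR quasi-likelihood test, Benjamini-Hochberg adjusted p under 0.05). These are 26.6% and 25.9% of the genes tested, or 52.6% together, and the median log2 fold change over all tested genes was -0.005. A family was therefore read against a background in which about every other gene was called. Groups without overlap in CPM were as common, with 24.6% of the genes tested higher in all DKO-severe libraries and 27.3% lower. A lack of overlap, given below for single genes, is thus not particular to them. Scaling by library size alone in place of TMM gave 5460 higher and 2756 lower. The 2 directions differed in size, with 2218 genes higher by a log2 fold change of at least 2 and 491 lower by as much. Of the genes called higher, 1111 had a mean under 0.1 CPM in WT, and 412 had no read there. Of those called lower, 220 had a mean under 0.1 CPM in DKO-severe. With terms for the neutrophil and B cell lists 3285 of 16035 genes were called, 2254 higher and 1031 lower. Without the 3 libraries 6679 of 15497 were called, 3624 higher and 3055 lower. The counts given beside the families for these fits are to be read against those numbers.

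**Figure D2:**
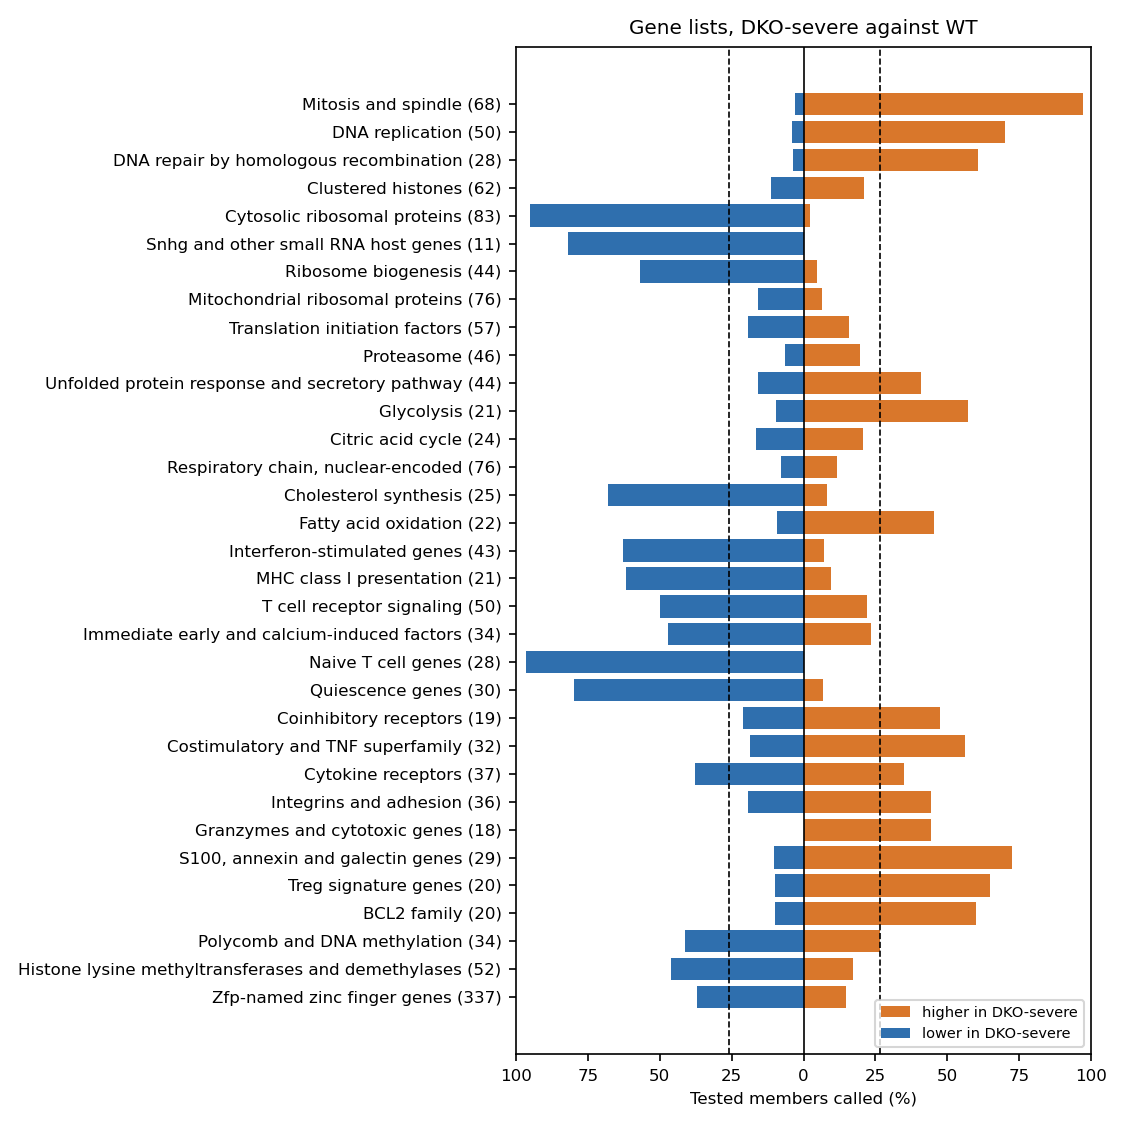
Share of the tested members of each gene list called higher (right, orange) and lower (left, blue) in DKO-severe (edgeR, adjusted p under 0.05, 4 against 4 libraries), with the number tested beside each name. Dashed lines mark the shares over all 16035 genes, 26.6% higher and 25.9% lower, which the mitosis, naive, and ribosomal protein lists pass by the widest margins.

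Mitosis and spindle genes rose almost without exception. Of 68 tested members 66 rose and 2 fell, with a median log2 fold change of 3.03. *Mki67*, whose product coats mitotic chromosomes and marks cycling cells, was counted at 21.6, 23.3, 33.4, and 49.1 CPM in WT and 289, 194, 258, and 457 CPM in DKO-severe (log2 fold change 3.23 ± 0.31, adjusted p = 1.2e-05). Every DKO-severe library lay above every WT library, with DKO-severe 2 the lowest of its group and DKO-severe 4 the highest. *Ccnb1*, the mitotic cyclin, went from 5 ± 1.17 to 42.2 ± 17.6 CPM (mean ± SD, n = 4), and *Plk1*, a kinase of mitotic entry, from 5.15 ± 1.46 to 33.4 ± 14.2 CPM. The largest log2 fold changes among members with at least 5 CPM in the higher group were those of the spindle gene *Aspm* (3.57) and of *Bub1* and *Ska1* (3.49 and 3.49), which act at kinetochores. The members that fell were the securin gene *Pttg1* (-0.58) and the condensin subunit *Smc4* (-1.12). The sister subunit *Smc2* rose (1.15), and so did 4 of 4 non-SMC condensin subunits listed, *Ncapg* (3.17), *Ncapg2* (2.64), *Ncaph* (2.75), and *Ncapd2* (1.62). The counts were 65 higher and 1 lower with the marker terms, and 66 and 2 without the 3 libraries.

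The promoters of the mitotic genes are shown because the members moved together. The cell cycle homology region (CHR), with the letters TTTGAA, is the site through which the DREAM and MYB-MuvB complexes restrict transcription to late phases of the cycle. It was present, on either strand, within 250 bases before to 50 after the start in 39 of 54 mitosis genes with an entry in the RefSeq promoter table (72.2%), in 8 of 41 replication genes (19.5%), and in 14.6% of all 10675 tested genes with an entry. The CCAAT box, which binds NF-Y, was present in 70.4%, 58.5%, and 42.8% of the same sets. In the windows of the 4 members with the largest rises that hold a CHR, given 5′ to 3′ on the strand of the gene (GRCm38.p6), the capitals mark it, and TTCAAA is the site read on the other strand.
Aspm, chr1:139454769-139454794, plus strand: aggcgcgataTTTGAAccgagcaaaa
Kif18b, chr11:102925106-102925131, minus strand: gaccggctagTTTGAAcgcgccgcgc
Kif15, chr9:122951052-122951077, plus strand: gggcgccaaaTTCAAAtctgcggcca
Cdk1, chr10:69352912-69352937, minus strand: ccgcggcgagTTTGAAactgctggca
*Cdk1*, the kinase that drives mitosis, was counted at 3.13, 2.55, 3.22, and 5.82 CPM in WT and 45.4, 22.6, 35.8, and 60.2 CPM in DKO-severe (log2 fold change 3.47 ± 0.44, adjusted p = 6e-05). *Kif15* and *Kif18b*, both spindle motors, had log2 fold changes of 3.48 and 3.48. A match of letters is a description and says nothing on the binding of a factor in these cells.

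Most DNA replication genes rose as well, by less. Of 50 members 35 rose and 2 fell, with a median of 0.84. *Mcm5*, a subunit of the replicative helicase, rose from 66.3 ± 3.76 to 155 ± 35.5 CPM (log2 fold change 1.22 ± 0.18, adjusted p = 0.00018), and *Rrm2*, the cycle-regulated subunit of ribonucleotide reductase, from 15.3 ± 3.29 to 111 ± 46.5 CPM. The sliding clamp *Pcna* moved from 206 ± 22.3 to 266 ± 41.1 CPM, with overlapping groups (log2 fold change 0.37, adjusted p = 0.025, not called without DKO-severe 1, WT 1, or WT 4, at 0.32, 0.34, and 0.31). The licensing and initiation genes *Mcm10* (3.38) and *Orc1* (3.08) and the thymidine kinase *Tk1* (3.12) rose most, while the single-strand binding subunit *Rpa1* (-0.45) fell. Of 28 genes of homologous recombination 17 rose and 1 fell (median 1.3). Among them *Brca1*, a recombination scaffold and tumor suppressor, was counted at 5.95, 4.71, 6.35, and 6.64 CPM in WT and 26.3, 15.9, 21.5, and 35.9 CPM in DKO-severe (log2 fold change 2.07 ± 0.22, adjusted p = 2.1e-05), and the nuclease gene *Mus81* fell (-0.71). Of 62 clustered histone genes tested, 13 rose and 7 fell, and 40 had a WT mean under 0.5 CPM. Reads shared between near-identical copies were not counted, so the values of single histone genes are uncertain. The list also holds the replication-independent linker histone *H1f0*, a gene on chromosome 15 outside the clusters, which rose (2.16). *Hist1h1c* (-1.49) and *Hist3h2a* (-1.68) fell. Replication genes stood at 26 higher and 0 lower with the marker terms (31 and 1 without the 3 libraries), recombination genes at 15 and 1 (17 and 1), and clustered histones at 3 and 1 (8 and 6).

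**Figure D3:**
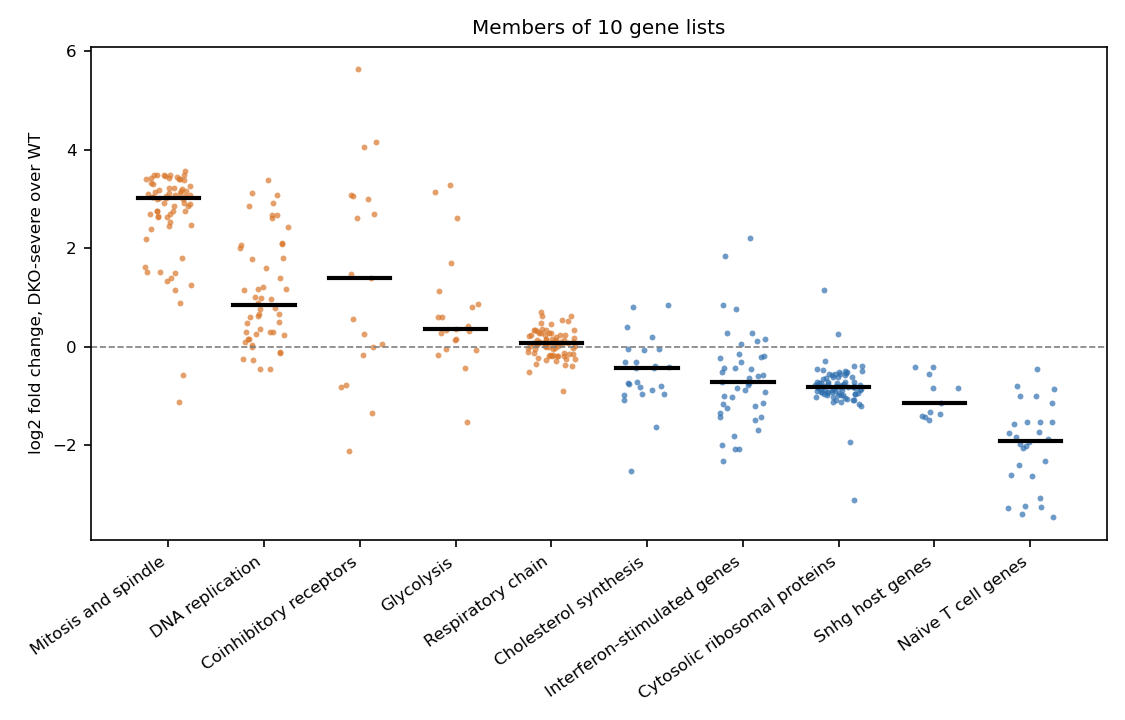
Log2 fold change (DKO-severe over WT) of each tested member (points) of 10 gene lists, with the list median (black bar) and the median of all tested genes (dashed line, -0.005). Mitosis genes center at 3.03 and cytosolic ribosomal proteins at -0.81.

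Genes of the cytosolic ribosome fell together. Of 83 tested ribosomal protein genes 79 were lower and 2 higher, with a median log2 fold change of -0.81. Their summed level was 136174, 136269.8, 126082, and 125828 CPM in WT and 78156, 75622, 78771, and 69791 CPM in DKO-severe, so every DKO-severe library lay below every WT library. *Rpl12*, a protein of the large subunit, was counted at 3657, 3387, 3019, and 2982 CPM in WT and 1441, 1482, 1469, and 1241 CPM in DKO-severe (log2 fold change -1.21 ± 0.12, adjusted p = 1.6e-05), and *Rps27*, of the small subunit, at 1715, 2180.3, 2093, and 1963 CPM in WT and 911, 964, 1003, and 789.9 CPM in DKO-severe (log2 fold change -1.12 ± 0.12, adjusted p = 2.5e-05). The members that rose, *Rps27l* (1.16) and *Rpl7l1* (0.26), are paralogs of *Rps27* and *Rpl7* and not standard subunits, and *Rps27l* is a known p53 target. *Rpl7l1* was not called without DKO-severe 1, WT 1, WT 2, or WT 4 (0.21, 0.22, 0.24, and 0.25). Among the larger falls, *Rpl37a* (-1.93) rests on WT 4, at 1022 CPM against 183 to 192 CPM in the other WT libraries. Ribosomal protein genes have many processed pseudogenes, and reads shared with them were left out of the counts. With scaling by library size alone, which moved the median of all genes to 0.178, the list's median was -0.62. The list had 57 members lower with the marker terms and 75 without the 3 libraries.

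Small nucleolar RNA host genes fell too. None of 11 tested rose and 9 fell (median -1.14). *Gas5*, whose introns hold small nucleolar RNAs, was counted at 316, 351, 263, and 232 CPM in WT and 140.4, 164, 164, and 184 CPM in DKO-severe (log2 fold change -0.83 ± 0.14, adjusted p = 0.00039), and *Snhg1* at 119, 139.7, 109, and 88 CPM in WT and 36.5, 40.1, 41.1, and 46.2 CPM in DKO-severe (log2 fold change -1.48 ± 0.15, adjusted p = 1.5e-05). Both groups of genes are known for transcripts that begin with a tract of pyrimidines, the 5′ terminal oligopyrimidine (TOP), through which mTOR controls their translation and stability. A run of at least 6 pyrimidines that began with C within 5 bases of the annotated start was present in 27 of 61 ribosomal protein genes with an entry (44.3%), in 4 of 9 host genes, in 1 of 38 ribosome biogenesis genes, and in 1384 of all 10675 tested genes with an entry. Around the start of the members with the largest falls that hold such a run (GRCm38.p6, strand of the gene), the capitals mark it.
Rpl12, chr2:32961704-32961729, plus strand: caggatccgtCTTTTCggctttcggc
Rps27, chr3:90213634-90213658, minus strand: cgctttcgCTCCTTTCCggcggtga
Snhg12, chr4:132308667-132308692, plus strand: gttctcagtCCTTTCTCgcttcatcc
Snhg8, chr3:123508321-123508346, minus strand: gttcagaagtCTCTTTggctgcgatc
*Snhg12* and *Snhg8* had log2 fold changes of -1.41 and -1.33. The host genes stood at 0 higher and 5 lower with the marker terms (0 and 7 without the 3 libraries).

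The other parts of the protein synthesis machinery changed less. Ribosome biogenesis factors had 25 of 44 lower and 2 higher (median -0.31), led by *Nop56* (-0.73), *Rrp9* (-0.73), and *Gnl3* (-0.67). Nucleolin (*Ncl*), the abundant nucleolar protein, was at 755 ± 37.9 CPM in WT and 761 ± 54.9 CPM in DKO-severe, and fibrillarin (*Fbl*) fell (-0.42). Biogenesis factors stood at 1 higher and 6 lower with the marker terms (1 and 15 without the 3 libraries). Mitochondrial ribosomal proteins had 5 higher and 12 lower of 76, with a median of -0.05, and when a single library was left out 2 to 14 were higher, the most without DKO-moderate 4 and the fewest without DKO-severe 1, and 6 to 14 lower, the fewest without WT 1, DKO-severe 2, or DKO-severe 4. Translation initiation factors had 9 higher and 11 lower of 57. *Eif4a2*, a paralog of the initiation helicase eIF4A1, fell from 1046 ± 197 to 447 ± 75.4 CPM (log2 fold change -1.23 ± 0.17, adjusted p = 0.00012), and *Eif4ebp1*, the cap-binding inhibitor that mTOR inactivates, rose from 5.84 ± 0.721 to 14.4 ± 3.9 CPM. Cytosolic aminoacyl-tRNA synthetases split into 6 higher and 5 lower of 20, none by more than *Cars* (-0.72), and 2 to 5 were lower with a single library left out, the fewest without WT 1 or DKO-severe 3. Proteasome genes had 9 higher and 3 lower of 46, and the interferon-inducible subunits *Psmb9* (-0.4) and *Psmb10* (-0.35) were 2 of the 3 that fell. With a single library left out, 5 to 17 proteasome genes were higher, the most without DKO-moderate 4 and the fewest without DKO-severe 1. Neither *Psmb9* nor *Psmb10* was called without DKO-severe 2, DKO-severe 3, or WT 1 (-0.33, -0.36, and -0.34 for *Psmb9*, -0.3, -0.33, and -0.31 for *Psmb10*). The unfolded protein response and secretory list had 18 higher and 7 lower of 44 (median 0.18). The stress sensor *Atf6* (1.66) and the transcription factor *Xbp1* (1.35) rose, the cochaperone *Dnajb9* (-1.76) and the stress factors *Atf4* (-0.95) and *Ddit3* (-0.79) fell, and the chaperone *Hspa5* was at 687 ± 133 CPM in WT and 687 ± 53.7 CPM in DKO-severe. *Xbp1* also marks plasma cells and is among the 9 plasma cell genes summed above, of which 5 were called higher and 4 were not called. With *Irf4*, another member, it makes up much of that sum. In DKO-severe 3 *Irf4* was at 279 CPM and *Xbp1* at 139 CPM, of a sum of 479.6 CPM. Mitochondrial ribosomal proteins stood at 0 higher and 4 lower with the marker terms (2 and 7 without the 3 libraries), initiation factors at 2 and 2 (8 and 5), the synthetases at 0 and 1 (3 and 4), proteasome genes at 0 and 1 (5 and 1), and the unfolded protein response list at 7 and 1 (12 and 7).

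Glycolytic genes rose at some steps only. Of 21 listed 12 rose and 2 fell (median 0.36). Hexokinase 2 (*Hk2*), which commits glucose to the pathway in activated cells, was counted at 1.87, 1.77, 3.77, and 2.13 CPM in WT and 27.1, 16.6, 19.3, and 21.3 CPM in DKO-severe (log2 fold change 3.14 ± 0.3, adjusted p = 1.1e-05). The lactate exporter *Slc16a3* was counted at 1.38, 1.55, 3.36, and 2.54 CPM in WT and 34, 14.5, 15.9, and 22.2 CPM in DKO-severe (log2 fold change 3.29 ± 0.47, adjusted p = 0.00014), and *Tpi1* and *Pgam1* rose by 2.62 and 1.71. For these genes no DKO-severe library reached down into the WT range. Lactate dehydrogenase A rose (0.61) while the B subunit fell (-1.53). The glucose transporter *Slc2a1* was at 53.2 ± 5.45 CPM in WT and 50.9 ± 11 CPM in DKO-severe (adjusted p = 0.71), and *Slc2a3*, another glucose transporter, fell (-0.42). The pentose phosphate list had 4 of 7 higher, with *G6pdx*, its first enzyme, at 50.2 ± 4.01 CPM in WT and 116 ± 15.5 CPM in DKO-severe (log2 fold change 1.21 ± 0.1, adjusted p = 6.5e-06). *Hif1a*, which encodes the oxygen-regulated factor that induces glycolytic genes, rose from 187 ± 32.3 to 1357 ± 353 CPM (log2 fold change 2.86 ± 0.27, adjusted p = 1.2e-05), and its target *Pdk1*, which closes the entry of pyruvate into the mitochondrion, fell from 503 ± 88.1 to 89.9 ± 17.8 CPM (log2 fold change -2.48 ± 0.2, adjusted p = 5.4e-06). The hypoxia list, which holds both genes, had 2 higher and 5 lower of 20. Glycolytic genes stood at 8 higher and 3 lower with the marker terms (12 and 3 without the 3 libraries), pentose phosphate genes at 1 and 0 (3 and 0), and hypoxia genes at 1 and 2 (2 and 3).

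In the citric acid cycle and the respiratory chain a smaller share of genes was called than the 52.6% over all genes. The citric acid cycle had 5 higher and 4 lower of 24 (median -0.02), with the mitochondrial isocitrate dehydrogenase *Idh2* lower (-1.21) and pyruvate carboxylase *Pcx* higher (1.04). Without WT 1, WT 2, DKO-severe 2, or DKO-severe 3, 2 members of the cycle were lower. Nuclear-encoded respiratory chain genes had 9 higher and 6 lower of 76 (median 0.07), and none passed an absolute log2 fold change of 1. With a single library left out, 5 to 23 respiratory genes were higher, the most without DKO-moderate 4 and the fewest without DKO-severe 1, and 2 to 8 lower, the fewest without DKO-severe 2, 3, or 4. Fatty acid oxidation had 10 higher and 2 lower of 22, led by *Decr1* (1.72) and *Hadh* (1.05). Amino acid transporters had 6 higher and 3 lower of 18. The serine and alanine carrier *Slc1a4* rose from 2.42 ± 1.31 to 38.5 ± 6.69 CPM (log2 fold change 3.99 ± 0.54, adjusted p = 0.0001), *Slc7a5*, the leucine carrier, was at 55.1 ± 6.04 CPM in WT and 52.6 ± 9.67 CPM in DKO-severe, and the glutamine carrier *Slc38a2* fell (-1.13). Serine, one-carbon, and nucleotide enzymes had 4 higher and 5 lower of 26. With a single library left out 2 to 8 were higher, the fewest without WT 1 or WT 2 and the most without DKO-severe 2, and 2 to 5 lower, the fewest without DKO-severe 3. *Psat1*, of serine synthesis, rose (1.01), and *Impdh1*, an enzyme of guanine nucleotide synthesis, fell (-1.49). Citric acid cycle genes stood at 1 higher and 1 lower with the marker terms (5 and 2 without the 3 libraries), respiratory chain genes at 0 and 2 (2 and 2), fatty acid oxidation genes at 3 and 2 (7 and 3), amino acid transporters at 2 and 2 (5 and 3), and the serine and nucleotide list at 3 and 3 (4 and 3).

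Most sterol genes fell. Of 25 genes of cholesterol synthesis and its control 17 fell and 2 rose (median -0.43). *Hmgcs1*, an early enzyme of the pathway, was counted at 81.9, 57, 64.1, and 61.2 CPM in WT and 37, 43.3, 36.4, and 35.9 CPM in DKO-severe (log2 fold change -0.79 ± 0.14, adjusted p = 0.00048), and *Sqle*, the squalene epoxidase, at 39.4, 25.4, 29.2, and 28.5 CPM in WT and 20.1, 16.1, 15.4, and 14.8 CPM in DKO-severe (log2 fold change -0.88 ± 0.16, adjusted p = 0.00059). In both genes every DKO-severe library lay under every WT library. *Mvd*, of the mevalonate steps, fell (-1.08), and so did *Srebf2* (-0.97), the factor that drives them. The members that rose, *Ebp* (0.19) and *Stard4* (0.41), rose by little. *Stard4* was not called without WT 2 (0.35), nor *Ebp* in 7 of the 12 fits that left out a single library, each of WT 1 to 4, DKO-severe 1, and DKO-moderate 1 and 3 (0.16 to 0.21). The sterol regulatory element, searched as TCACNCCAC on both strands, was present in the promoter window of 1 of 16 members with an entry and of 1.38% of all tested genes with one. Fatty acid synthesis had 5 higher and 3 lower of 16. The desaturase *Scd2* rose (0.94), the acetyl-CoA synthetase *Acss2* fell (-1.91), and *Fasn* was at 207 ± 10.7 CPM in WT and 245 ± 23.5 CPM in DKO-severe. Sterol genes stood at 0 higher and 9 lower with the marker terms (0 and 14 without the 3 libraries) and fatty acid synthesis genes at 3 and 1 (5 and 2).

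Most interferon-stimulated genes were lower in DKO-severe. Of 43 tested 27 fell and 3 rose, with a median of -0.72. These genes answer type I interferon and restrict viruses. *Usp18*, a feedback inhibitor of the interferon receptor, was counted at 39.1, 48, 26.4, and 25.3 CPM in WT and 2.82, 8.49, 8.59, and 7.75 CPM in DKO-severe (log2 fold change -2.32 ± 0.35, adjusted p = 0.0002), and *Oas2*, an RNA sensor, at 32.5, 52.6, 19.3, and 16.1 CPM in WT and 4.09, 12, 6.76, and 5.55 CPM in DKO-severe (log2 fold change -2.08 ± 0.43, adjusted p = 0.0016), both without overlap. *Irf7*, which amplifies the response, fell by 1.14 on the log2 scale. *Ifit3* varied within groups, at 31.7, 50.1, 21.7, and 23.1 CPM in WT and 5.48, 17.9, 15.2, and 11.2 CPM in DKO-severe (log2 fold change -1.35 ± 0.4, adjusted p = 0.015), and was not called without WT 2 (-1.04). Members such as *Isg15* (20.5 ± 7.61 CPM in WT and 18.6 ± 2.07 CPM in DKO-severe) and *Rsad2* (10.2 ± 4.58 CPM in WT and 8.23 ± 2.29 CPM in DKO-severe) did not pass the test. The antiviral GTPase *Mx1* was among the members that rose (1.84), with *Gbp3* (0.77) and *Ifi27l2a* (0.85). The list had 5 members lower and 2 higher with the marker terms and 25 and 3 without the 3 libraries, and its median was -0.66 and -0.71.

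The interferon-stimulated response element (ISRE), searched on both strands as a pair of GAAA tetramers with 2 bases between them, was present in the promoter windows of 18 of 31 members with an entry (58.1%) and of 3.79% of all tested genes with one. It was present in 8 of 19 members that fell and 9 of 11 that were not called. The windows of the members with the largest falls that hold it are given with the element in capitals (GRCm38.p6, strand of the gene).
Ddx58, chr4:40239806-40239831, minus strand: tgaggcagTTTCGATTTCctatggcc
Ifit1, chr19:34640796-34640821, plus strand: agtctcagTTTCAGTTTCtcactgct
Ifit3, chr19:34583399-34583424, plus strand: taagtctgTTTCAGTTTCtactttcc
Igtp, chr11:58199514-58199539, plus strand: taggaactGAAACTGAAAgctgttcg
*Ddx58*, which encodes the RNA sensor RIG-I, had a log2 fold change of -1.48 ± 0.2, *Ifit1* of -1.42 ± 0.36, and the GTPase *Igtp* of -1.25 ± 0.16. Genes of MHC class I presentation fell by less, 13 of 21 with 2 higher (median -0.34). Beta-2 microglobulin (*B2m*), the light chain of class I molecules, fell from 2287 ± 166 to 1487 ± 190.1 CPM (log2 fold change -0.62 ± 0.12, adjusted p = 0.00098), and the peptide transporter *Tap1* from 502 ± 47.5 to 324 ± 16.2 CPM (log2 fold change -0.63 ± 0.1, adjusted p = 0.00031). The members that rose, *Calr* (0.32) and *Pdia3* (0.37), encode chaperones of the endoplasmic reticulum with wider roles, and *Calr* was not called without DKO-severe 4, WT 3, or WT 4 (0.29, 0.26, and 0.3). Class I genes of the H2-Q group are near-identical, and their counts are uncertain. Class I genes stood at 0 higher and 4 lower with the marker terms (1 and 10 without the 3 libraries).

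**Figure D4:**
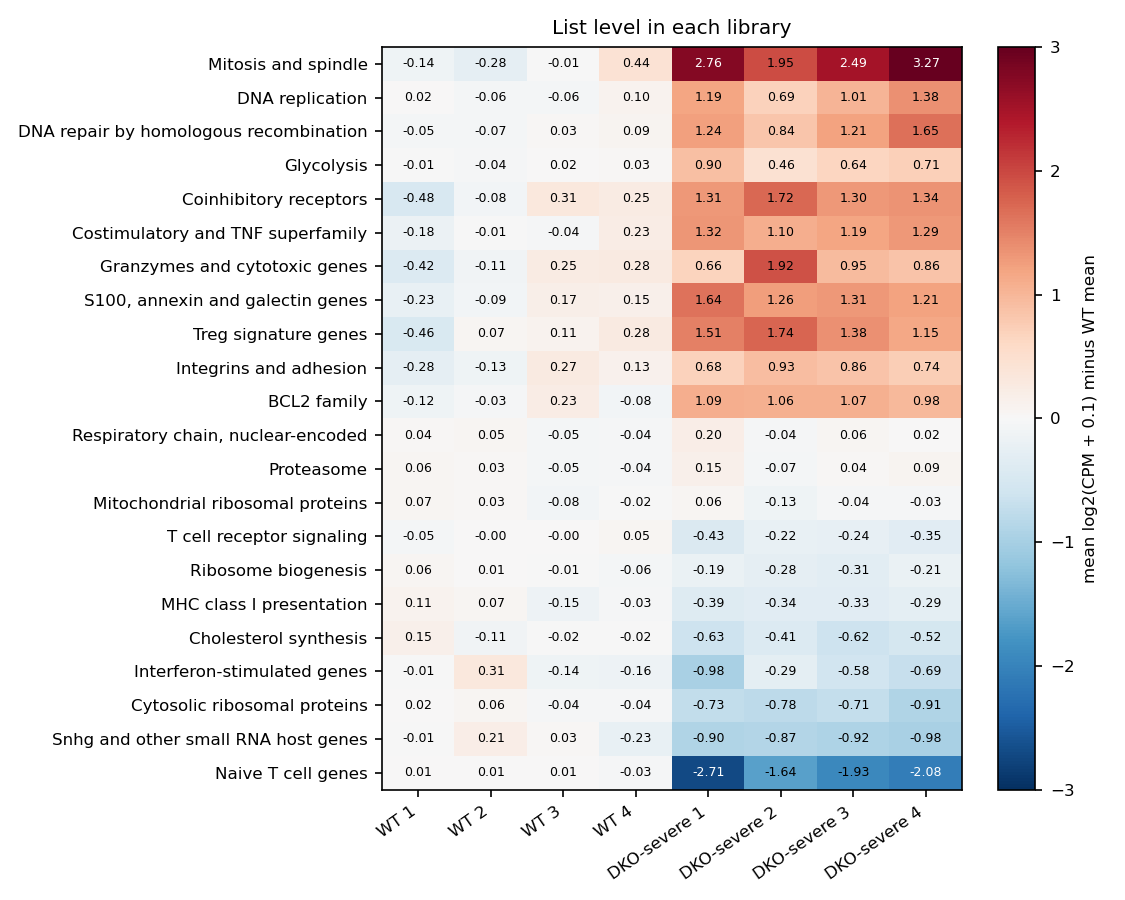
Mean log2(CPM + 0.1) of the tested members of 22 gene lists in each of the 8 libraries, minus the WT mean of that list (color). DKO-severe 2 has the smallest rise of mitosis genes in its group (1.95, against 2.49 to 3.27) and the smallest fall of interferon-stimulated genes (-0.29).

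T cell receptor signaling genes moved both ways. Of 50 listed 25 fell and 11 rose (median -0.2, and -0.01 with scaling by library size alone). At the receptor, the zeta chain *Cd247* was counted at 419, 451, 451, and 476 CPM in WT and 143, 232, 186, and 223 CPM in DKO-severe (log2 fold change -1.2 ± 0.15, adjusted p = 5.4e-05), and *Cd3e* at 389.7 ± 34.6 CPM in WT and 477 ± 28.6 CPM in DKO-severe. The membrane scaffold *Lat* was counted at 851, 880.1, 684, and 736 CPM in WT and 234, 336, 275, and 294 CPM in DKO-severe (log2 fold change -1.47 ± 0.15, adjusted p = 1.5e-05), without overlap. *Lck*, the first kinase of the cascade, fell by 0.48 on the log2 scale, and *Zap70*, the kinase that docks on the zeta chain, rose from 309 ± 17.3 to 621 ± 32.4 CPM (log2 fold change 1.0 ± 0.12, adjusted p = 5.3e-05). Among the adaptors, *Grap2* (-2.38) and *Pag1* (-2.37) fell most, and the Ras activator *Rasgrp1* fell too (-1.76). The members that rose most were *Sla* (1.66), an adaptor that promotes receptor turnover, and *Sh2d1a* (1.04), which couples SLAM receptors to signaling. The sum of the 10 general T cell genes was also lower in DKO-severe. Of its members 5 fell, 2 rose (*Cd28* and *Cd3e*), and 3 were not called, and *Lck* belongs to both lists. Receptor signaling genes stood at 5 higher and 7 lower with the marker terms (9 and 19 without the 3 libraries).

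The genes that respond within minutes to hours of stimulation fell more often than they rose. Of 34 listed 16 fell (47.1%) and 8 rose (23.5%), against 25.9% and 26.6% over all genes (median -0.4). *Jun* was counted at 379.6, 503, 364, and 396 CPM in WT and 17.1, 46.8, 80.8, and 44 CPM in DKO-severe (log2 fold change -3.12 ± 0.42, adjusted p = 9.7e-05), and the phosphatase *Dusp1* at 235, 380.0, 368, and 214 CPM in WT and 41.3, 36.5, 97.4, and 65.5 CPM in DKO-severe (log2 fold change -2.31 ± 0.39, adjusted p = 0.0004). Neither overlapped between the groups, and *Tnfaip3*, a brake on NF-kappaB, was lower as well (-1.99). *Irf4*, whose level follows the strength of receptor stimulation, was counted at 24.3, 30.7, 41.5, and 39.9 CPM in WT and 317, 199.7, 279, and 339 CPM in DKO-severe (log2 fold change 3.06 ± 0.25, adjusted p = 6.5e-06), and it is also high in plasma cells. *Egr2*, a factor of activated and tolerant T cells, rose from 20.3 ± 5.37 to 91.7 ± 21.9 CPM (log2 fold change 2.18 ± 0.25, adjusted p = 3.4e-05), and *Cd83* rose by 2.76 ± 0.52. *Nr4a1* was at 150.2 ± 42.9 CPM in WT and 117 ± 15.4 CPM in DKO-severe, with an adjusted p of 0.16. The immediate early list stood at 5 higher and 7 lower with the marker terms (6 and 13 without the 3 libraries).

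Of 28 naive T cell genes 27 fell and none rose, with a median of -1.91. *Ccr7*, the receptor for entry into lymph nodes, was counted at 534, 476, 459, and 540.4 CPM in WT and 117, 138, 141, and 127 CPM in DKO-severe (log2 fold change -1.94 ± 0.15, adjusted p = 4.7e-06). The transcription factor *Lef1*, which maintains the naive state, was counted at 341, 346, 299, and 301 CPM in WT and 48.1, 79.5, 66.4, and 51.5 CPM in DKO-severe. In both genes the DKO-severe libraries were all lower than the WT libraries. The largest falls in the list were *Als2cl* (-3.46), *Dapl1* (-3.4), and *Ly6c1* (-3.28). The member not called was *Klf2*, at 414 ± 54.2 CPM in WT and 303 ± 69.3 CPM in DKO-severe (adjusted p = 0.11). Of 30 quiescence genes 24 fell and 2 rose (median -0.85), led by *Lef1* (-2.39), *Dusp1* (-2.31), and *Klf7* (-2.09). Those that rose were the cell cycle inhibitor *Cdkn2c* (2.69) and *Klf4* (1.95). *S1pr1*, the receptor by which T cells leave lymph nodes, fell from 605 ± 65.8 to 276 ± 5.09 CPM (log2 fold change -1.13 ± 0.16, adjusted p = 0.0001). *Txnip*, an inhibitor of glucose uptake, fell from 1425 ± 481 to 589.7 ± 114 CPM, and *Actn1*, an actin crosslinker that is high in naive T cells, from 584 ± 9.34 to 62.2 ± 26.6 CPM (log2 fold change -3.23 ± 0.41, adjusted p = 6.3e-05). Naive genes stood at 0 higher and 15 lower with the marker terms (0 and 27 without the 3 libraries) and quiescence genes at 1 and 11 (2 and 17).

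Coinhibitory and costimulatory genes were called in both directions, more often higher. Of 19 coinhibitory receptors and related genes 9 rose and 4 fell (median 1.4). *Lag3*, which binds MHC class II, was counted at 6.44, 9.94, 13.2, and 34.6 CPM in WT and 953, 513, 801, and 920.4 CPM in DKO-severe (log2 fold change 5.63 ± 0.55, adjusted p = 1.3e-05). *Tigit* was counted at 5.89, 7.68, 9.46, and 18.4 CPM in WT and 219, 195, 151, and 175 CPM in DKO-severe (log2 fold change 4.16 ± 0.46, adjusted p = 2.8e-05), while *Cd96*, which shares its ligand, was counted at 186, 218, 193, and 201 CPM in WT and 18.2, 62.7, 54.4, and 48.3 CPM in DKO-severe (log2 fold change -2.12 ± 0.32, adjusted p = 0.00021). *Tigit* and *Cd96* thus moved in opposite directions, each without overlap. *Havcr2*, which encodes TIM-3, was uneven, at 0.201, 0.452, 2.21, and 0.547 CPM in WT and 5.45, 41.9, 3.24, and 6.41 CPM in DKO-severe (log2 fold change 4.05 ± 1.01, adjusted p = 0.0051). The ectoenzyme *Nt5e*, which makes adenosine, rose by 3.09 ± 0.18, and *Cd101* (-1.34) and *Cd200r1* (-0.81) fell. In the costimulatory and TNF families 18 of 32 rose and 6 fell (median 1.04). *Tnfrsf4*, which encodes OX40 and is high in Treg and activated cells, rose from 19.9 ± 6.2 to 262 ± 61.5 CPM (log2 fold change 3.72 ± 0.36, adjusted p = 1.3e-05), *Tnfrsf8*, which encodes CD30, from 0.61 ± 0.219 to 39.4 ± 26.1 CPM, and its ligand *Tnfsf8* by 2.61. *Cd80*, a ligand of CD28, rose by 5.16 on the log2 scale. The members that fell included *Ltb* (-1.27), *Tnfrsf1a* (-1.2), and *Cd27* (-0.82), and *Cd40lg* was at 105 ± 5.86 CPM in WT and 118 ± 21.8 CPM in DKO-severe. Coinhibitory genes stood at 7 higher and 0 lower with the marker terms (9 and 4 without the 3 libraries) and costimulatory and TNF genes at 15 and 3 (18 and 6).

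Cytokine receptors were called often and in both directions, 13 higher and 14 lower of 37 (median -0.01). The decoy receptor *Il1r2* was counted at 0.69, 1.45, 0.834, and 1.78 CPM in WT and 94.8, 32.2, 90.2, and 156 CPM in DKO-severe (log2 fold change 6.29 ± 0.55, adjusted p = 8e-06). The beta chain shared by the IL-2 and IL-15 receptors, *Il2rb*, rose from 219 ± 73.6 to 775 ± 33.8 CPM (log2 fold change 1.82 ± 0.2, adjusted p = 2.2e-05). *Il7r*, the survival receptor of resting T cells, was counted at 692, 774, 994, and 670.4 CPM in WT and 230.4, 436, 234, and 184 CPM in DKO-severe (log2 fold change -1.53 ± 0.34, adjusted p = 0.0028), *Il4ra* fell from 368 ± 23.3 to 91.4 ± 15.3 CPM (log2 fold change -2.01 ± 0.21, adjusted p = 1.9e-05), and the TGF-beta receptors *Tgfbr2* (-1.55) and *Tgfbr3* (-2.01) and the interferon gamma receptor chain *Ifngr2* (-1.92) fell. *Il6ra* fell by 0.99 on the log2 scale. Of 29 secreted factors tested 14 rose and 2 fell, and 11 had a WT mean under 0.5 CPM. *Spp1*, which encodes osteopontin, was counted at 0.431, 0.839, 1.93, and 3.96 CPM in WT and 195, 119, 75.8, and 208 CPM in DKO-severe (log2 fold change 6.36 ± 0.78, adjusted p = 4.8e-05). *Penk*, the enkephalin precursor, was counted at 3.3, 6.68, 7.33, and 7.38 CPM in WT and 311, 337, 226, and 309.7 CPM in DKO-severe (log2 fold change 5.58 ± 0.33, adjusted p = 3.1e-06), and *Lif* at 1.41, 2.52, 1.67, and 2.02 CPM in WT and 87, 56.2, 103, and 108 CPM in DKO-severe. For *Penk* every DKO-severe library stood above every WT library. *Il10* rose by 2.23 ± 0.63, and *Ifng* was at 14.4, 29.5, 23.9, and 24.4 CPM in WT and 4.61, 21.5, 12.7, and 14.5 CPM in DKO-severe (adjusted p = 0.1), with overlap. *Ccl3* was at 0.546, 0.71, 4.11, and 2.46 CPM in WT and 15.8, 168, 4.67, and 12.9 CPM in DKO-severe, without overlap, and the size of its rise rested on DKO-severe 2 (log2 fold change 4.67, and 2.52 without that library). *Ccl5* was at 62.7 ± 34.4 CPM in WT and 141 ± 128 CPM in DKO-severe (adjusted p = 0.09). Cytokine receptors stood at 7 higher and 7 lower with the marker terms (13 and 14 without the 3 libraries) and secreted factors at 6 and 2 (10 and 2). The median of the secreted factors was 1.99, against 0.73 and 1.08 in those fits.

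Homing and adhesion genes changed in both directions. Of 33 chemokine and lipid receptors 13 rose and 5 fell (median 0.64). *Ccr4*, a receptor for skin homing, rose from 20.7 ± 2.33 to 148 ± 39 CPM (log2 fold change 2.84 ± 0.19, adjusted p = 3.3e-06), the leukotriene receptor *Ltb4r1* rose by 4.02, and the prostaglandin receptor *Ptger2* by 2.86. *Gpr183*, which guides cells to oxysterols at the edge of follicles, fell from 88.7 ± 5.26 to 23.1 ± 9.28 CPM (log2 fold change -1.94 ± 0.31, adjusted p = 0.0003), and *Cxcr3* was at 42.8, 61.8, 56.2, and 104 CPM in WT and 105, 104, 91.6, and 84.2 CPM in DKO-severe, with overlap. Of 36 integrins and adhesion genes 16 rose and 7 fell (median 0.86). *Alcam*, the ligand of CD6, was counted at 2.24, 3.45, 6.47, and 7.11 CPM in WT and 312, 218, 262, and 227 CPM in DKO-severe (log2 fold change 5.72 ± 0.39, adjusted p = 3.5e-06), and the ranges lay far apart, while its partner *Cd6* fell (-1.33). The memory marker *Cd44* rose from 122 ± 28.9 to 225 ± 11.3 CPM. Among the integrin chains *Itgb8*, which activates TGF-beta, rose (3.9) and *Itga6* (-2.25) and *Itgb3* (-1.61) fell. *Itgam*, also a myeloid gene, was counted at 135, 59.2, 86.2, and 30.5 CPM in DKO-severe against 6.87 ± 3.77 CPM in WT. Chemokine and lipid receptors stood at 7 higher and 3 lower with the marker terms (14 and 5 without the 3 libraries) and integrins and adhesion genes at 12 and 3 (17 and 8).

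Effector and lineage genes rose in part. Of 18 cytotoxic genes 8 rose and 0 fell (median 0.91). *Gzmb* was counted at 1.49, 1.19, 3.45, and 2.65 CPM in WT and 36.6, 129, 97.8, and 25 CPM in DKO-severe (log2 fold change 5.03 ± 0.7, adjusted p = 0.00011), the granule regulator *Cst7* rose by 3.3, and *Gzmk* was at 7.1 ± 3.83 CPM in WT and 7.83 ± 7.32 CPM in DKO-severe (adjusted p = 0.85). Of 17 Th1 and Th2 genes 10 rose (5 to 10 with a single library left out, the fewest without DKO-severe 2 or WT 1), but the factors that define the lineages were not called, with *Gata3* at 73.6 ± 10.8 CPM in WT and 71.2 ± 5.09 CPM in DKO-severe and *Tbx21* at 21.7 ± 8.22 CPM in WT and 28.3 ± 10.6 CPM in DKO-severe. Of 20 Treg signature genes 13 rose and 2 fell (median 1.44). *Foxp3* was counted at 1.01, 3.1, 1.03, and 1.56 CPM in WT and 0.13, 0.426, 0.833, and 0.144 CPM in DKO-severe (log2 fold change -2.1 ± 0.68, adjusted p = 0.021) in these YFP-negative cells, and was not called without DKO-severe 1, DKO-severe 4, or WT 2 (-1.83, -1.79, and -1.63). *Il2ra*, the high affinity IL-2 receptor chain, was counted at 6.21, 14.1, 14.1, and 12.7 CPM in WT and 123, 96, 91.5, and 78.1 CPM in DKO-severe (log2 fold change 3.04 ± 0.26, adjusted p = 7.1e-06), and *Ikzf2*, which encodes Helios, at 22.1, 51.4, 33.2, and 68.9 CPM in WT and 227, 187, 239, and 253 CPM in DKO-severe (log2 fold change 2.37 ± 0.39, adjusted p = 0.00034). *Gpr83*, another gene of the signature, fell (-1.69). Cytotoxic genes stood at 5 higher and 0 lower with the marker terms (7 and 0 without the 3 libraries), Th1 and Th2 genes at 3 and 0 (5 and 0), and Treg signature genes at 8 and 2 (12 and 4).

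The S100, annexin, and galectin genes that mark memory and effector cells mostly rose, 21 of 29 with 3 lower (median 1.06). *S100a4* was counted at 31.4, 36.7, 49.2, and 43.7 CPM in WT and 733, 253, 643, and 222 CPM in DKO-severe (log2 fold change 3.52 ± 0.37, adjusted p = 1.9e-05), *Anxa2* at 29, 27, 45.2, and 54.6 CPM in WT and 718, 322, 436, and 680.2 CPM in DKO-severe (log2 fold change 3.79 ± 0.3, adjusted p = 5.4e-06), and *Lgals1* at 63.4, 83.6, 81.9, and 96.7 CPM in WT and 458, 351, 340.3, and 460.1 CPM in DKO-severe (log2 fold change 2.31 ± 0.15, adjusted p = 3.1e-06). All 3 separated the groups fully, as did 24.6% of all tested genes in this direction. *Anxa4* rose by 3.95 on the log2 scale. *Lgals9* (-1.4) and *Lgals8* (-0.66) fell. Annexin A1 and A3 are also neutrophil genes, and *Anxa3* was counted at 0.115, 0.226, 0.661, and 0.574 CPM in WT and 11, 4.08, 1.64, and 1.1 CPM in DKO-severe. Of 33 lysosomal genes 12 rose and 8 fell, with *Ctsb* higher (1.53) and the cholesterol transfer protein *Npc2* lower (-1.54). In the BCL2 family 12 of 20 rose and 2 fell (median 0.73). The survival genes of the *Bcl2a1* cluster rose, with *Bcl2a1d* at 2.72 and *Bcl2a1b* at 1.5, though these are near-identical copies whose counts are uncertain. The death gene *Pmaip1*, which encodes NOXA, was counted at 2.7, 4.36, 8.48, and 3.25 CPM in WT and 96.5, 35.3, 91.1, and 78.1 CPM in DKO-severe (log2 fold change 4.0 ± 0.41, adjusted p = 1.6e-05), and the survival gene *Mcl1*, whose product it neutralizes, fell from 868 ± 133 to 542 ± 55.7 CPM (log2 fold change -0.68 ± 0.15, adjusted p = 0.0025). *Bcl2* and *Bcl2l11* were at 235 ± 22.1 CPM in WT and 245 ± 36.5 CPM in DKO-severe and at 70.1 ± 14.6 CPM in WT and 72.6 ± 16.1 CPM in DKO-severe, and neither was called. p53 target genes had no common direction, 13 higher and 10 lower of 28 (median 0.0), with *Perp* (6.57) and *Phlda3* (3.08) at one end and *Plk2* (-2.01) and *Sesn1* (-1.72) at the other. S100, annexin, and galectin genes stood at 13 higher and 1 lower with the marker terms (17 and 3 without the 3 libraries), lysosomal genes at 8 and 5 (12 and 8), BCL2 family genes at 7 and 0 (10 and 1), and targets of p53 at 7 and 2 (12 and 7).

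**Figure D5:**
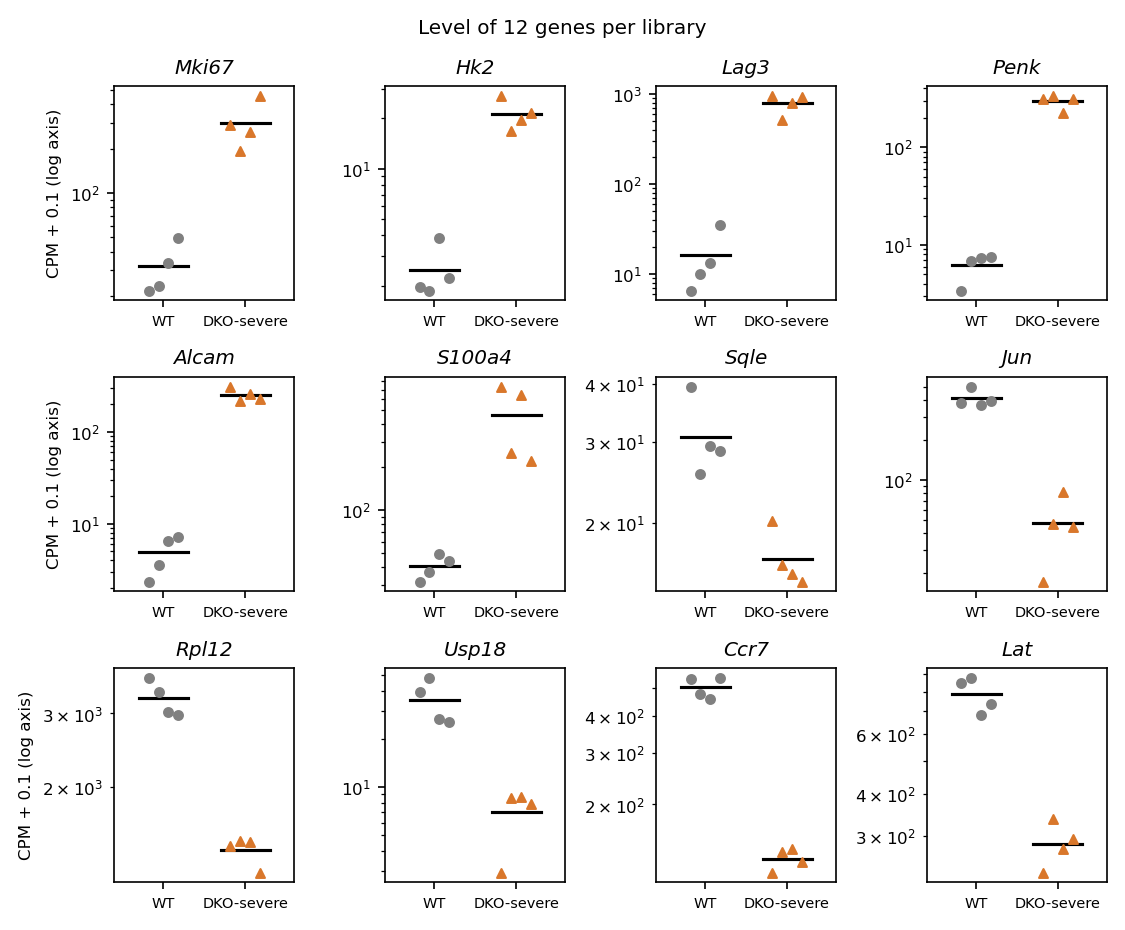
Level of 12 genes (CPM + 0.1, log axis) in each WT and DKO-severe library (points) with the mean of each group (bar, n = 4). Lag3, Penk, Alcam, and Hk2 are higher in 4 of 4 DKO-severe libraries, and Sqle, Jun, Rpl12, and Usp18 lower in 4 of 4.

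Chromatin regulators fell more often than they rose, though not in the fit with the marker terms for 2 of the 3 lists described here. In that fit more genes were called higher than lower over all genes too (2254 and 1031). Of 34 Polycomb and DNA methylation genes 9 rose and 14 fell (median -0.21, and -0.02 with scaling by library size alone). *Tet1*, the third TET enzyme, which the mice do not lack by design, was counted at 39.7, 46, 42.3, and 38.5 CPM in WT and 2.04, 6.91, 5.09, and 5.94 CPM in DKO-severe (log2 fold change -3.06 ± 0.36, adjusted p = 3.9e-05), with all DKO-severe libraries far below WT. The de novo methyltransferase *Dnmt3a* fell (-0.9), and *Uhrf1*, which brings maintenance methylation to replicated DNA, rose from 14.5 ± 1.67 to 92.1 ± 27.9 CPM (log2 fold change 2.67 ± 0.24, adjusted p = 8.2e-06). *Ezh2*, the methyltransferase of Polycomb complex 2, rose by 1.19 ± 0.11. Of 52 histone lysine methyltransferases and demethylases 24 fell and 9 rose (median -0.31), with *Whsc1*, a methyltransferase of H3K36, higher (1.88). Of 337 zinc finger genes named Zfp 125 fell and 50 rose (median -0.24), or 37.1% and 14.8% against 25.9% and 26.6% over all genes. *Zfp652* (-2.08) and *Zfp354c* (-2.07) fell most among those with at least 5 CPM, and *Zfp651* rose most (5.11). Zfp genes stood at 28 higher and 18 lower with the marker terms (44 and 83 without the 3 libraries), the histone enzymes at 5 and 3 (6 and 12), and Polycomb and methylation genes at 5 and 6 (8 and 10).

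Guidance, channel, and transporter families contained genes that WT cells barely express. Of 53 ephrin, semaphorin, and plexin genes listed 44 were tested, 22 rose, and 5 fell (3 to 6 with a single library left out, the fewest without DKO-severe 3). *Epha3*, an ephrin receptor tyrosine kinase, was counted at 0.144, 0.419, 0.345, and 0.519 CPM in WT and 22.4, 29.2, 19, and 9.45 CPM in DKO-severe (log2 fold change 5.79 ± 0.43, adjusted p = 4.6e-06). *Epha7* had no read in WT and 11.6, 11.3, 7.71, and 22.3 CPM in DKO-severe, at least 615-fold higher against a floor of 3 reads over the WT group. *Sema4c* rose from 0.765 ± 0.477 to 34.6 ± 15.8 CPM (log2 fold change 5.48 ± 0.5, adjusted p = 9.7e-06), and *Sema4a*, a semaphorin of lymphocytes, fell from 177 ± 20.6 to 52.3 ± 20.7 CPM (log2 fold change -1.76 ± 0.26, adjusted p = 0.00015). Of 145 potassium and calcium channel genes 88 were tested, 42 rose, 16 fell, and 48 had a WT mean under 0.5 CPM. *Kcna3* and *Kcnn4*, the channels that sustain calcium entry in T cells, were at 44.6 ± 6.04 CPM in WT and 91.7 ± 12 CPM in DKO-severe (adjusted p = 0.0082) and at 259 ± 29.2 CPM in WT and 218 ± 13.5 CPM in DKO-severe (adjusted p = 0.07). The leak channel *Kcnk1* rose to 33.8, 2.59, 43.9, and 31.9 CPM from a WT mean of 0.137 CPM. Of 352 solute carriers 243 were tested, 82 rose, and 52 fell, with *Slc24a3* (6.38) and *Slc2a6* (5.66) and *Slc16a5* (-3.4) and *Slc25a27* (-2.15) as the ends among members with at least 5 CPM in the higher group. A member with almost no reads in WT was tested because of its reads in the mutant groups, so these counts of rises are not evidence about the family. The ephrin and semaphorin list stood at 16 higher and 0 lower with the marker terms (20 and 4 without the 3 libraries), channels at 21 and 5 (36 and 13), and solute carriers at 44 and 17 (68 and 41).

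The remaining lists had mixed calls. STAT, JAK, and SOCS genes had 9 higher and 8 lower of 23, with *Jak3*, the kinase of the common gamma chain, higher (1.15) and *Stat5b* lower (-0.72). Glutathione and thioredoxin genes had 6 higher and 6 lower of 24, with *Srxn1*, which restores oxidized peroxiredoxins, from 0.919 ± 0.536 to 28.3 ± 5.2 CPM. Chaperonins and heat shock proteins had 1 higher and 3 lower of 25, and the GIMAP GTPases of lymphocyte survival 1 higher and 3 lower of 8. The STAT, JAK, and SOCS list stood at 4 higher and 1 lower with the marker terms (7 and 8 without the 3 libraries), glutathione and thioredoxin genes at 2 and 2 (6 and 6), chaperonins and heat shock proteins at 1 and 1 (1 and 1), and GIMAP genes at 1 and 1 (1 and 2).

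The 10 largest rises over all genes, among those at 10 CPM or more in DKO-severe with no overlap, were all genes without a read in the 4 WT libraries. They were *Tmem45a*, *Hapln1*, *Pex5l*, *Rspo2*, *Adra1b*, *Thbs2*, *Cobl*, *Arhgap44*, *Meis2*, and *Barx2*. *Hapln1* (chr13:89539796-89611652, GRCm38), which links hyaluronan to proteoglycans, was counted at 29.7, 9.44, 124, and 9.29 CPM in DKO-severe, at least 2111-fold above the floor of 3 reads over the WT group. DKO-severe 3 carried most of it. *Rspo2* (chr15:43020794-43170826), a secreted enhancer of Wnt signaling, was counted at 29.9, 10.4, 35.7, and 38.8 CPM (at least 1358-fold), *Tmem45a* (chr16:56805161-56886166) at 37.4, 16.5, 65.4, and 55.1 CPM (at least 2091-fold), and *Pex5l* (chr3:32949408-33143247) at 46.8, 13, 52.1, and 27.7 CPM (at least 1617-fold). The adrenergic receptor *Adra1b*, the matrix protein *Thbs2*, the actin nucleator *Cobl*, and *Arhgap44* were at least 1056, 1059, 905, and 908-fold higher. *Meis2* and *Barx2*, homeobox factors of development, were at least 801 and 714-fold higher, at 18.6, 8.22, 32.1, and 9.33 CPM and at 11, 9.77, 22.8, and 16.4 CPM. In 9 of these 10 genes DKO-severe 2 was the lowest library of its group.

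Families of matrix and developmental genes were listed after these values had been seen. Of 43 collagen chains 28 were tested, 15 rose, and 5 fell. *Col5a2* was counted at 0.0287, 0, 0, and 0.109 CPM in WT and 117, 28.6, 106, and 38.7 CPM in DKO-severe (log2 fold change 10.83 ± 0.93, adjusted p = 7.3e-06). Of 83 homeobox genes outside the Hox clusters 21 were tested, 16 rose, and 1 fell, while of 39 Hox cluster genes 13 were tested, 3 rose, and 6 fell. Of 46 keratins 13 were tested and 7 rose, with *Krt18* at 11.4, 3.77, 16.2, and 5 CPM in DKO-severe. Of 78 metalloprotease and ADAM genes 43 were tested, 23 rose, and 6 fell, and *Mmp10*, a matrix-degrading enzyme, was counted at 0.0575, 0.226, 0.0862, and 0.082 CPM in WT and 83.3, 24.5, 163, and 139 CPM in DKO-severe (log2 fold change 9.82 ± 0.72, adjusted p = 4.3e-06). Summed over 10 markers of fibroblasts and stroma, the level was 0.258 to 0.604 CPM in WT and 29.4, 3.81, 3.31, and 31 CPM in DKO-severe (no overlap), and the part of these cells in the values was not tested. Of these markers 8 stayed under 1 CPM in all 8 libraries. *Col1a2*, a defining fibroblast collagen, was at 0, 0.0304, 0.0476, and 0 CPM in DKO-severe, *Col3a1* at 0, 0.0913, 0.0714, and 0.407 CPM, and *Pdpn* at 0.0324, 0, 0, and 0 CPM. Of the exceptions, *Col1a1* was at 5.16, 0.913, 0.0952, and 0.0957 CPM and *Pdgfra* at 23.6, 2.16, 2.95, and 30.3 CPM. Of 5 endothelial markers 4 stayed under 1 CPM throughout. The counts of rises among these families share the limit given for the channels. Collagen chains stood at 12 higher and 1 lower with the marker terms (15 and 5 without the 3 libraries), homeobox genes at 13 and 0 (14 and 0), Hox genes at 1 and 0 (3 and 5), keratins at 8 and 0 (7 and 0), and metalloprotease and ADAM genes at 13 and 1 (18 and 5).

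The 10 largest falls among genes at 10 CPM or more in WT were *Adh1*, *Arhgap29*, *A530021J07Rik*, *2210010C17Rik*, *Gabrr2*, *Amigo2*, *Tmie*, *Als2cl*, *Ampd1*, and *St8sia6*. *Adh1* (chr3:138260991-138290698), an alcohol dehydrogenase that also oxidizes retinol, was counted at 25.6, 19.8, 17.2, and 22.4 CPM in WT and 0.0973, 0.609, 1.64, and 0.862 CPM in DKO-severe (log2 fold change -4.69 ± 0.63, adjusted p = 9.4e-05). *Arhgap29* (chr3:121952541-122016753), a GTPase-activating protein, was counted at 33.8, 35.8, 26.5, and 24.8 CPM in WT and 0.552, 1.92, 1.86, and 2.27 CPM in DKO-severe (log2 fold change -4.18 ± 0.46, adjusted p = 2.4e-05). In both genes DKO-severe 1 was the lowest library. *Als2cl* (chr9:110879870-110900530, plus strand) was the most abundant of the 10, at 642, 698, 484, and 510.0 CPM in WT and 14.3, 74.4, 61.9, and 61.1 CPM in DKO-severe (log2 fold change -3.46 ± 0.46, adjusted p = 8.3e-05). *Tmie* (chr9:110865711-110880113, minus strand) lies beside it, with annotated ends that overlap, and was counted at 43.3, 37.7, 44.5, and 44.6 CPM in WT and 0.973, 4.96, 4.36, and 4.43 CPM in DKO-severe (log2 fold change -3.52 ± 0.48, adjusted p = 9.3e-05). The counts are strand-specific, and whether some reads of *Als2cl* reach the count of *Tmie* was not tested. *Ampd1*, the deaminase of adenosine monophosphate, fell by 3.45 and the sialyltransferase *St8sia6* by 3.44 on the log2 scale. *Amigo2*, *Gabrr2*, *A530021J07Rik*, and *2210010C17Rik* had log2 fold changes of -3.62, -3.66, -4.16, and -3.67. DKO-severe 1 was the lowest DKO-severe library for each of these 10 genes.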

How the data were processed

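RNA was measured in 12 libraries of CD4+ YFP(FOXP3)- T cells (WT, DKO-moderate, and DKO-severe, 4 libraries per group by the labels). The deposited values are raw read counts per gene, which the authors made from directional NEBNext libraries with STAR 2.7.11 (mm10, uniquely placed reads) and reverse-stranded HTSeq. The gene annotation behind the counts is not given in the sources used here. Entries for reads without a gene were removed. No library was a copy of another of its group, as chi-square over degrees of freedom was 21.6 or more for each pair.

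A gene was kept where the 4 libraries of any 1 condition had 10 or more reads together (16035 of 26608). All 12 libraries were fitted by group in edgeR 4.0.16 (R 4.3.3) after TMM scaling, and DKO-severe minus WT was tested with the quasi-likelihood F test, adjusted by Benjamini-Hochberg over all tested genes (threshold 0.05). Standard errors were derived from the log2 fold change and F. CPM were TMM-scaled, and the floor of 3 reads covers counting error only. With 1 library per mouse, p-values measure the spread between mice and library preparations together.

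Members and gene lists were chosen with earlier results of these data known, and some lists hold genes that the study names, such as *Gzmb*, *Tbx21*, *Ifng*, and *Il2ra*. The collagen, keratin, metalloprotease, homeobox, Hox, stromal, and endothelial lists were added after values had been seen. Named genes are the leading genes chosen for each list, up to 3 called members per list and direction with the largest change (5 CPM or more in the higher group), the 10 largest rises and falls without overlap at 10 CPM or more (outside marker, immunoglobulin, Y-linked, and study-named genes), and *Tet2*, *Tet3*, and *Foxp3*. Other named genes, *Smc2*, *Ncapg*, *Ncapg2*, *Ncaph*, *Ncapd2*, *Cdk1*, *Kif15*, *Kif18b*, *Rps27*, *Pgam1*, *Srebf2*, *Isg15*, *Rsad2*, *Ddx58*, *Ifit1*, *Igtp*, *Nt5e*, *Tnfsf8*, *Tgfbr2*, *Ccl3*, *Cd6*, and *Anxa3*, were chosen after their values had been seen. Some genes that the rule would name are not reported here. Promoter windows came from a RefSeq table (GRCm38.p6, 10675 of the tested genes with an entry), and gene coordinates from GENCODE vM21 (GRCm38).

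In simulated counts for these genes and library sizes (15639 genes), 100 well-counted genes were changed at each log2 size, equally up and down. Here edgeR recovered 72% of genes changed by a log2 size of 1 and 92% of those changed by 2. False calls were 5.2% with edgeR, 4.6% with limma voom, and 26.6% with DESeq2. In the data 52.6% of genes were called, and many that rose had few reads in WT, so these rates need not carry over. The alternatives were scaling by library size or DESeq2 size factors, no filter, edgeR's filterByExpr, DESeq2 1.42.0, limma 3.58.1 voom, a fit of WT and DKO-severe alone, a replicate block, terms for Y-linked transcripts or for neutrophil and B cell genes, stricter thresholds, and leaving out each library. Figures were drawn with matplotlib 3.10.9 in Python 3.11.15. The single-cell, methylation, and cytometry data of the study were not analysed here.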

Additional observations from a re-analysis of the deposited data

Results flagged for a closer look

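In 34 of 512 groups of 4 values examined (each named gene, each marker sum, and the ribosomal protein sum, in WT and in DKO-severe), a library lay far from the other 3 of its group, with a gap to its neighbor that passed Dixon's critical value at 95% as a share of the group's range. Chance alone gives such a gap in about 1 in 20 groups.

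WT 4 was high for *H1f0* at 55.7 CPM (next 26.7), *Rpl37a* at 1022 CPM (next 192), *Psat1* at 45.5 CPM (next 38.8), *Ezh2* at 52.4 CPM (next 47.3), *Sema4c* at 1.48 CPM (next 0.575), and *Slc24a3* at 1.09 CPM (next 0.201). WT 3 was high for *Itgam* at 12.5 CPM (next 5.68), and low for *Slc2a3* at 56.4 CPM (next 65.8), *Cd40lg* at 96.6 CPM (next 107), and *Cd6* at 486 CPM (next 596). Its sum of B cell genes was 860.3 CPM (next 30.6), of monocyte and macrophage genes 294 CPM (next 36.6), and of erythroid genes 22.1 CPM (next 6.81). WT 2 was high for *Mmp10* at 0.226 CPM (next 0.0862), and low for *Pcx* at 4.29 CPM (next 4.6) and *Fasn* at 191 CPM (next 211). DKO-severe 2 was high for *Hmgcs1* at 43.3 CPM (next 37), *Havcr2* at 41.9 CPM (next 6.41), *Il10* at 13.7 CPM (next 3.64), *Ccl3* at 168 CPM (next 15.8), *Ccl5* at 332 CPM (next 96.1), and *Dnmt3a* at 82.2 CPM (next 50.7), and low for *Pcx* at 7.15 CPM (next 9.9), *Hadh* at 69.1 CPM (next 117), *Slc1a4* at 28.5 CPM (next 41.7), and *Pdia3* at 492 CPM (next 583). WT 1 was low for *Dnmt3a* at 92.5 CPM (next 108). DKO-severe 1 was low for *Usp18* at 2.82 CPM (next 7.75), *Dapl1* at 0.876 CPM (next 8.9), *Actn1* at 22.5 CPM (next 73.1), and *Tmie* at 0.973 CPM (next 4.36). DKO-severe 4 was high for *Cd83* at 110.1 CPM (next 39.5), and low for *Cd44* at 208 CPM (next 229.6) and *Bcl2a1b* at 67.7 CPM (next 83.7).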

How the results depend on the processing

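Leaving out each of the 12 libraries in turn gave 7253 to 9006 genes called, 3683 to 4675 higher and 3433 to 4331 lower. Of the alternatives, scaling by library size alone gave 2756 lower genes (5460 higher), terms for neutrophil and B cell genes gave 3285 called (2254 higher and 1031 lower), and a threshold that also asked for a log2 fold change of 1 or more in size gave 4397 called (2996 higher and 1401 lower). The cause of the change under the terms was not tested. The other fits called 6679 to 9760 genes, with 8481 by DESeq2 and 9760 by limma voom, and 5877 passed an adjusted p of 0.01. No gene called in a fit and in the reported one had opposite directions. Of 12 lists with a median under 0.1 in size, 11 changed sign in at least 1 alternative. Medians of at least 0.1 changed sign in 5 cases, the clustered histones with filterByExpr (-0.03, from 0.46), the hypoxia list with scaling by library size alone (0.06, from -0.13), the glutathione list with the neutrophil and B cell terms (-0.01, from 0.12), and the Hox cluster genes with no filter (0.31) and with filterByExpr (1.16, from -1.37).

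The reported fit did not pair the samples by replicate number. WT and DKO-severe libraries with the same number had residual correlations of -0.272 to 0.208 (median -0.133). Those with different numbers had -0.318 to 0.303 (median 0.0799). With so few pairs, these values cannot tell whether equal numbers share a batch. A fit with the replicate number as a block called 7794 genes (3883 higher and 3911 lower), and *Pcna*, *Rpl7l1*, *Ebp*, and *Ccl3* were not called in it. Genes at a few reads in WT could be tested only through the mutant groups, so at this depth the counts of rises in rarely expressed families are limited by detection.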
